A study of Mus musculus with 15 samples.

Results

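The 9 genes described here are *Cdkn2a*, *Cdkn2b*, *Cdkn2c*, *Cdkn1a*, *Cdkn1b*, *Ccnd1*, *Ccnd2*, *Ccnd3* and *Myc*, which encode inhibitors of cyclin-dependent kinases (CDKs), the D cyclins and a transcription factor that drives growth. They are a list of names, and their probes are those on the microarray whose RefSeq transcript belongs to 1 of them. They are 9 of the 23462 genes named by a probe. All 9 are among the 13523 genes whose probe could be tested.

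D cyclins bind CDK4 and CDK6, and the active complexes phosphorylate the retinoblastoma protein, which frees E2F factors and lets a cell leave the G1 phase. The INK4 proteins (p16 from *Cdkn2a*, p15 from *Cdkn2b*, p18 from *Cdkn2c*) block CDK4 and CDK6, whereas the Cip/Kip proteins (p21 from *Cdkn1a*, p27 from *Cdkn1b*) act mainly on the complexes of CDK2. MYC binds E-box sequences with its partner MAX, raises genes of ribosome and nucleotide synthesis and is known to repress several CDK inhibitors. TGFß1 is known to halt epithelial cells in G1, with a rise of p15 and a fall of MYC, while fibroblasts often keep dividing.

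Gene expression was measured with 1-color Agilent microarrays in Mouse Embryonic Fibroblasts (MEFs) of the established Balb/c 3T3 line, a single clone (A31) used over several passages. Each of the 5 groups held 3 arrays. Control MEFs were left alone, and the other groups were stimulated by TNFα (10 ng/ml), by TGFß1 (5 ng/ml), by IL-1β (1 ng/ml) or by IL-6 (20 ng/ml) with its soluble receptor sIL-6Rα (25 ng/ml). The culture lasted 24 h for control, TNFα and TGFß1. For IL-1β and IL-6 it was 24 or 72 h, and the labels do not say which. The groups share the line and the medium with serum, and the study names no genetic modification of the cells. Arrays are named by their group and by the number that opens their label.

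A level is the log2 processed signal minus the 75th percentile of the array, so that a level of 0 equals that percentile, and a log2 fold-change is a difference of 2 mean levels. Levels of different genes come from different probes and are not compared. A probe was called when its q was under 0.05 and its level differed 1.5-fold or more (limma's moderated two-sided test, Benjamini-Hochberg adjusted over 29334 probes). The 4 comparisons with control share the same 3 control arrays. The study describes the arrays of control, TNFα and TGFß1 as biological replicas from independent experiments, but the labels tie no array to an experiment or culture. The p-values measure the spread between these arrays, which may in part be technical. Fewer cells that express a gene and less of its RNA per cell cannot be told apart on bulk arrays. The arrays sat on 2 slides. Of the first 3 groups, slide 1 held arrays 1 and 11 of control, 14 of TNFα and 7 of TGFß1, while slide 2 held array 6 of control, 4 and 9 of TNFα, and 2 and 12 of TGFß1. Slide 1 also held IL-1β 5 and 10 and IL-6 3 and 8, and slide 2 held IL-1β 15 and IL-6 13.

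The 75th percentile of the signal lay between 507.5 and 682.9 on the 15 arrays, and 48.3% to 54.9% of the probes were well above background. All 10 fibroblast markers that were looked up (such as *Col1a1*, *Dcn* and *Pdgfra*) were well above background on the 15 arrays. *Ptprc*, *Adgre1* and *Lyz2* of leukocytes and macrophages, *Cdh1* and *Krt5* of epithelia, and *Cdh5*, *Kdr* and *Tek* of endothelium were on none. *Cd14*, *Cd68*, *Csf1r*, *Itgam* and *Pecam1* were well above background on all 15 arrays. Of the other epithelial and endothelial markers, *Krt18* was so on 10 arrays, *Krt8* on 4, *Krt14* on 3, and *Epcam* and *Vwf* on 1 each. The summed linear signal of the 7 leukocyte and macrophage markers was 7.01 to 14.9 in control, 8.16 to 15.6 with TNFα and 8.07 to 13.8 with TGFß1, in units of the 75th percentile. For the 6 epithelial markers it was 0.0803 to 0.16 in control, 0.0576 to 0.0749 with TNFα and 0.163 to 0.422 with TGFß1. The part of other cells in the results below was not tested.

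The 9 genes were read by 15 probes, each of which was well above background on 15 of 15 arrays. *Cdkn2c*, *Cdkn1b* and *Ccnd1* had 1 probe and the other 6 genes had 2, of which the brighter stands for the gene. *Cdkn2c* was the only member called with both TNFα and TGFß1, and *Myc* was called with TGFß1. The 3 INK4 genes all lie on mouse chromosome 4, where 1 annotated gene separates *Cdkn2a* from *Cdkn2b*.

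In all, TNFα had 1 of the 9 genes called lower and 0 higher, where 10.2% of all tested probes were called. TGFß1 had 1 lower and 1 higher, where 18.0% of the probes were called. These are 11.1% and 22.2% of the members, shares close to those of all probes. With IL-1β, 0 of 9 were called by limma, 0 had an unadjusted p under 0.05, and 0.252% of the probes were called. With IL-6, 0 of 9 were called, 1 (*Ccnd1*, named after its value was seen) had an unadjusted p under 0.05, and 0.0648% of the probes were called. No other setting called a member with IL-1β or IL-6. The median log2 fold-change of the 9 genes was -0.21 with TNFα, 0.17 with TGFß1, -0.08 with IL-1β and -0.04 with IL-6, where the medians of all tested genes were 0.00, 0.05, -0.01 and -0.01. With the slide in the model 3 genes were called with TNFα (11.9% of the probes) and 3 with TGFß1 (20.1%). By label number the arrays fall into 3 runs, each holding every group once (1 to 5, 6 to 10, 11 to 15). With slide and run both modelled, 3 were called with TNFα (*Cdkn1b*, *Cdkn2c* and *Myc*, where 15.4% of the probes were called) and 3 with TGFß1 (*Cdkn2b*, *Cdkn2c* and *Myc*, 22.4%). Without control 6, *Cdkn2c* alone was called with each, where 8.54% and 14.8% of the probes were called.

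Promoter windows of RefSeq (GRCm38.p6, 250 bases before to 50 after an annotated start) were found for 6 of the 9 genes, 10 windows in all. Those of *Cdkn2c* and *Cdkn2b* are shown because these inhibitors, both of the INK4 family, stood lower and higher than control with TGFß1. Capitals mark every match, on either strand, of the SMAD core CAGAC, of the E-box CACGTG bound by MYC and MAX, and of the GC box GGGCGG; no 2 matches overlap. The first *Cdkn2c* window is chr4:109666707-109667006, the second is chr4:109665323-109665622, and the *Cdkn2b* window is chr4:89310983-89311282, all on the minus strand and written 5′ to 3′.
Cdkn2c, first start: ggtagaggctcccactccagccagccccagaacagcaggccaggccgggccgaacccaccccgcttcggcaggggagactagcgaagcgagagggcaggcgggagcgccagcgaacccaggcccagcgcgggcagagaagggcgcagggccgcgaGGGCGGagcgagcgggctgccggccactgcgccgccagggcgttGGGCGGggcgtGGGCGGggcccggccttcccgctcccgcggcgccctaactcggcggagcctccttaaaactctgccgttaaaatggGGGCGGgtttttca
Cdkn2c, second start: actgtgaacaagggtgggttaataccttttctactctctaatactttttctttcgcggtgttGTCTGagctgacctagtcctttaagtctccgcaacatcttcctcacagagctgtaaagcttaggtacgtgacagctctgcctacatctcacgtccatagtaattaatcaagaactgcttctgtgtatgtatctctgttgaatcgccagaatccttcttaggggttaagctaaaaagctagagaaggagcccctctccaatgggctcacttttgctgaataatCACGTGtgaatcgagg
Cdkn2b: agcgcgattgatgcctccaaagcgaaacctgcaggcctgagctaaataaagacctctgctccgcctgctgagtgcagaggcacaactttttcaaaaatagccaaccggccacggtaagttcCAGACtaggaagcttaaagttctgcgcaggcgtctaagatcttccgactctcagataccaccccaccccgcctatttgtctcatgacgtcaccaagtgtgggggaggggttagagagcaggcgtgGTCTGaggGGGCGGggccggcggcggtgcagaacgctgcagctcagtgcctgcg
The first *Cdkn2c* window holds 4 GC boxes and neither other motif, with a GC content of 73.3%. The second holds 1 SMAD core and 1 E-box, with a GC content of 44.0%. The *Cdkn2b* window holds 2 SMAD cores and 1 GC box. Among 32851 windows of the same length, 49.6% held a SMAD core, 7.2% an E-box and 35.7% a GC box. The E-box of *Cdkn2c* was the only one in the 10 windows of these genes. Such matches describe letters in these windows and nothing on whether a factor binds there.

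The level of *Cdkn2c*, the inhibitor p18 of CDK4 and CDK6, fell with TNFα and with TGFß1. It was 1.69 on control 1, 2.08 on control 6 and 1.89 on control 11. The TNFα arrays gave 1.03 (array 4), 1.13 (array 9) and 1.22 (array 14), and the TGFß1 arrays gave 0.98 (array 2), 0.95 (array 7) and 1.02 (array 12). All 6 arrays lay under the 3 controls, and the TGFß1 arrays had the smallest spread, with an SD of 0.03 (n = 3). The log2 fold-change was -0.76 with TNFα (SE 0.14, q = 0.00397), a level 1.69-fold lower. With TGFß1 it was -0.90 (SE 0.14, q = 0.000754), a level 1.86-fold lower. Within slide 1 the differences were -0.57 and -0.83, and within slide 2 the level was lower than on control 6 by more than that with both cytokines (-1.08 with TGFß1). Both calls held with the slide in the model and when any single array was left out.

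*Cdkn2c* was 1.56, 1.92 and 1.66 on IL-1β 5, 10 and 15, and 1.68, 2.09 and 1.73 on IL-6 3, 8 and 13. These arrays overlapped the controls, with log2 fold-changes of -0.17 (95% interval -0.48 to 0.14) and -0.05 (-0.36 to 0.25). Ordered by mean level, control (1.89) was followed by IL-6 (1.83), IL-1β (1.71), TNFα (1.13) and TGFß1 (0.99). The step from IL-1β to TNFα passed the direct test (-0.59, SE 0.14, q = 0.0299). That call was lost with normexp background correction, median scaling or no filter on dim probes. It was also lost without any single TNFα array, without IL-1β 10 or 15, and with control 6 left out and the slide in the model. The other neighbours in this order did not pass the direct test. Even so, the 3 TNFα arrays all lay above the 3 TGFß1 arrays (difference 0.14, 95% interval -0.17 to 0.45).

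*Cdkn2b*, which encodes p15, was higher with TGFß1 by an amount close to the fold threshold. Its level was 2.62, 2.62 and 2.55 on control 1, 6 and 11, and 2.96, 3.60 and 2.92 on TGFß1 2, 7 and 12. The 3 TGFß1 arrays lay above the controls, and array 7, the one on slide 1, stood 0.64 above the next. The log2 fold-change of 0.57 (95% interval 0.16 to 0.97, q = 0.0429) passed the q threshold and was 1.48-fold, under the 1.5 required, so that it was not called. With the slide in the model it was 0.61 (SE 0.18, q = 0.0248) and was called. With normexp background correction it was 0.59 (q = 0.0319) and was called. Without TGFß1 12 or TGFß1 2 it was called as well (0.68, q = 0.0393 and 0.67, q = 0.049), and without TGFß1 7 it was 0.35 with q = 0.153. With quantile normalization, median scaling or no filter on dim probes it was 0.46, 0.59 and 0.57 with q of 0.102, 0.0984 and 0.0994, which did not pass. Without control 1, 6 or 11 the q was 0.079, 0.0825 and 0.104, and on the 9 arrays of control, TNFα and TGFß1 alone 0.0854. Leaving out IL-1β 15, TNFα 14 or any single IL-6 array gave a q of 0.0533 to 0.0568. The difference was 1.02 within slide 1 and 0.32 within slide 2. The second probe gave 0.48 (q = 0.0796).

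With TNFα the level of *Cdkn2b* was 2.36, 2.85 and 2.46 on arrays 4, 9 and 14, which overlapped the controls (log2 fold-change -0.04, 95% interval -0.45 to 0.36). The direct test put it lower with TNFα than with TGFß1 (-0.61, SE 0.19, q = 0.0446), at -1.15 within slide 1 and -0.34 within slide 2. This difference was not called with quantile normalization, median scaling, no filter on dim probes or the mean of a gene's probes. The call was also lost without TGFß1 7, TNFα 4, TNFα 14, IL-1β 15, any single control or any single IL-6 array. IL-1β gave 2.71, 3.15 and 2.88 on arrays 5, 10 and 15, all above the controls, with a log2 fold-change of 0.32 (95% interval -0.09 to 0.72) that did not pass the test. IL-6 gave 0.04 less than control (95% interval -0.45 to 0.36).

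*Cdkn2a* encodes p16 and, from another reading frame, ARF, which stabilizes p53. Both of its probes carry the same RefSeq transcript and were well above background on all arrays, so *Cdkn2a* RNA was detected in this line. Whether this RNA encodes p16 or ARF was not determined. Its level ranged from 4.34 to 4.58 on the controls, 4.10 to 4.33 with TNFα and 3.89 to 4.65 with TGFß1. The TNFα arrays lay just under the controls and the TGFß1 arrays spanned them. No comparison with control passed the test: the log2 fold-change was -0.25 with TNFα (95% interval -0.74 to 0.24), -0.19 with TGFß1 (-0.68 to 0.30), -0.06 with IL-1β (-0.55 to 0.43) and -0.17 with IL-6 (-0.66 to 0.32). The TGFß1 difference was 0.27 within slide 1 and -0.52 within slide 2. The second probe gave values between -0.18 and 0.05.

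*Cdkn1b*, which encodes p27, was lower with TNFα. Its level was 2.28, 2.32 and 2.30 on control 1, 6 and 11, with an SD of 0.02, and 1.76, 1.63 and 1.84 on TNFα 4, 9 and 14. The 2 groups did not overlap. The log2 fold-change of -0.56 (SE 0.12, q = 0.0109) passed the q threshold but was 1.47-fold, and with the slide in the model it was -0.60 (SE 0.11, q = 0.00269) and was called. It was -0.45 within slide 1 and -0.63 within slide 2. Without TNFα 14 it was called too (-0.61, q = 0.0197). The direct tests put *Cdkn1b* lower with TNFα than with IL-6 (-0.67, SE 0.12, q = 0.0041). That call was lost without IL-6 13. Against TGFß1 the difference was -0.46 (q = 0.0231), under the fold threshold. TGFß1 itself gave 2.25, 2.09 and 2.28 on arrays 2, 7 and 12, just under the controls, with a log2 fold-change of -0.10 (95% interval -0.37 to 0.17). IL-1β gave -0.10 (-0.37 to 0.16) and IL-6 gave 0.11 (-0.16 to 0.38).

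The probes of *Cdkn1a*, whose product p21 is induced by p53 among other factors, differed from each other. The brighter probe gave 2.79, 2.47 and 2.64 on control 1, 6 and 11, 2.61, 2.65 and 2.64 on TNFα 4, 9 and 14, and 2.85, 3.33 and 2.59 on TGFß1 2, 7 and 12. These groups overlapped, with log2 fold-changes of 0.00 with TNFα (95% interval -0.48 to 0.49) and 0.29 with TGFß1 (-0.19 to 0.78). The dimmer probe, which carries another RefSeq transcript of the gene, gave -0.51 (-1.42 to 0.40) and -0.74 (-1.65 to 0.18). Neither probe was called with any cytokine, with or without the slide in the model. With the slide and the run in the model the dimmer probe was called lower with TGFß1 (-0.66, SE 0.11, q = 0.000986), and the brighter probe, at 0.41 (q = 0.00245), stayed under the fold threshold. The intervals of the dimmer probe were wider, and its TGFß1 difference was 0.09 within slide 1 and -1.38 within slide 2. IL-1β and IL-6 gave 0.07 and -0.09 on the brighter probe.

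**Figure D1:**
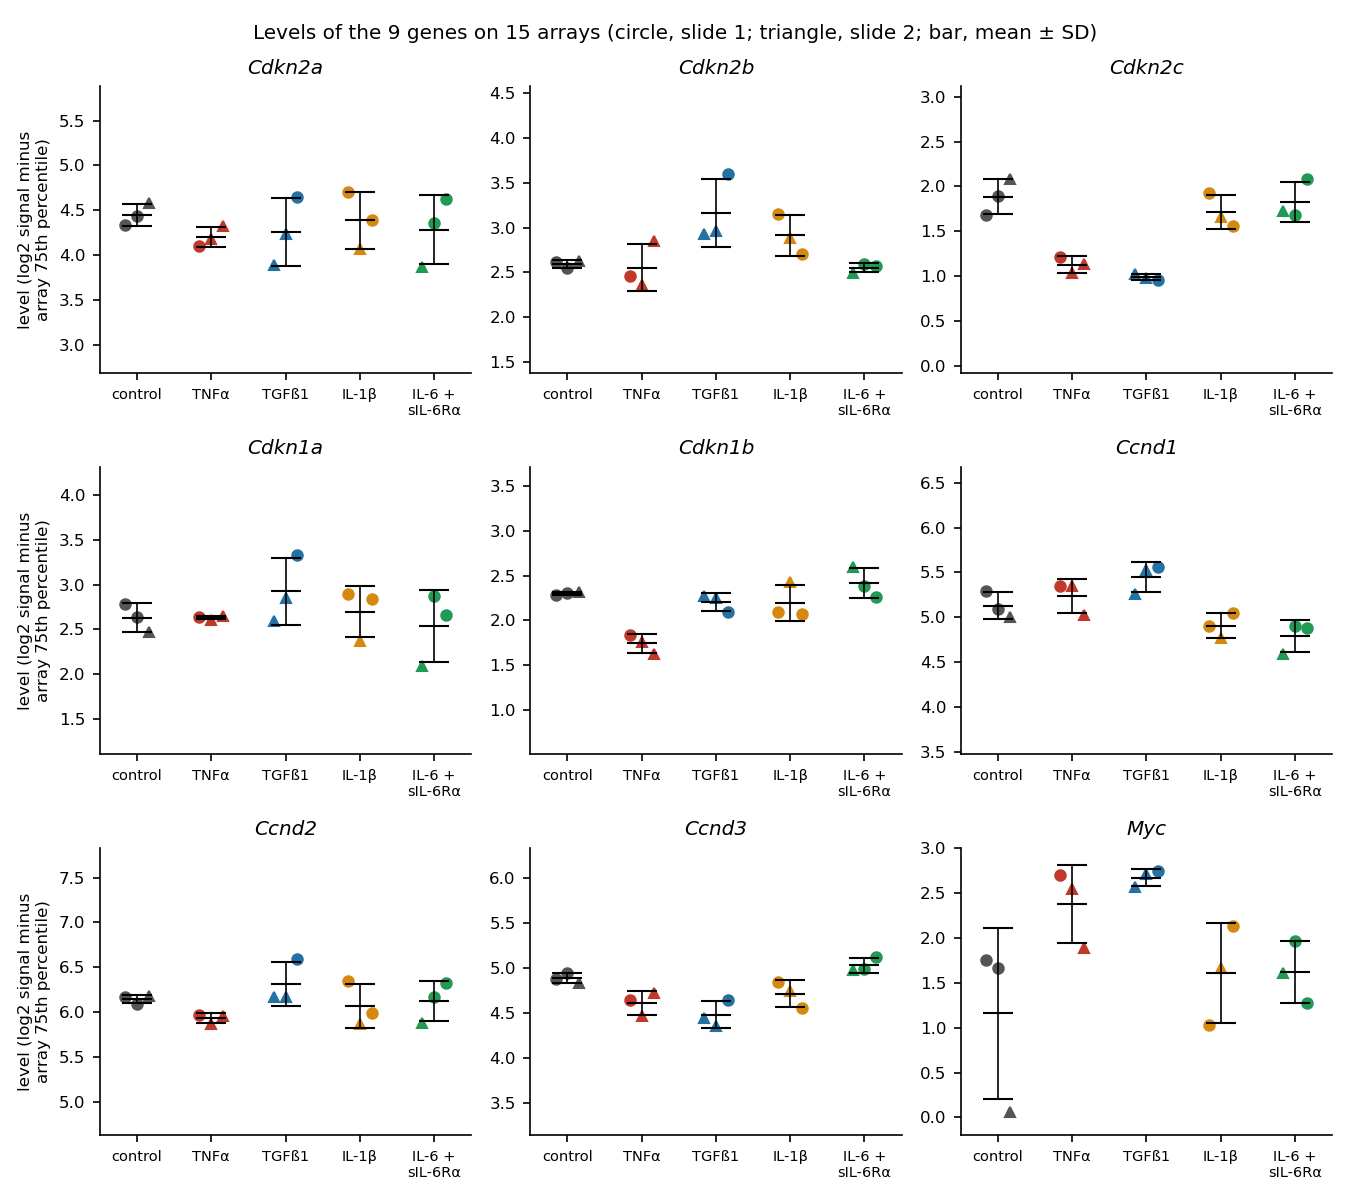
Level (log2 signal minus the array's 75th percentile) of each of the 9 genes on the 15 arrays, with a point per array (circle, slide 1; triangle, slide 2) and bars for the mean and SD of the 3 arrays of a group. Every panel spans the same number of log2 units. The 6 *Cdkn2c* points of TNFα and TGFß1 lie between 0.95 and 1.22, under all controls, and *Myc* on control 6 lies at 0.06, far under the other 2 controls.

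Of the D cyclins, which activate CDK4 and CDK6, none was called against control. *Ccnd1* was 5.29, 5.00 and 5.10 on control 1, 6 and 11, and 5.52, 5.56 and 5.26 on TGFß1 2, 7 and 12. These arrays overlapped by TGFß1 12 alone, and the log2 fold-change was 0.32 (95% interval 0.01 to 0.63, q = 0.123). With TNFα it was 0.11 (-0.20 to 0.42). With IL-6 the arrays gave 4.90, 4.88 and 4.59 (arrays 3, 8 and 13), all under the controls, with a log2 fold-change of -0.34 (-0.65 to -0.03) and a q of 1.00 after adjustment. IL-1β gave -0.22 (-0.53 to 0.09). The direct test put *Ccnd1* higher with TGFß1 than with IL-6 (0.66, SE 0.14, q = 0.00586), with 0.67 within slide 1 and 0.80 within slide 2. That call was lost with normexp background correction, quantile normalization or median scaling, and without IL-6 array 13.

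*Ccnd2* was 6.16, 6.18 and 6.09 on control 1, 6 and 11 and 5.87, 5.96 and 5.97 on TNFα 4, 9 and 14. The TNFα arrays lay under the controls, with a log2 fold-change of -0.21 (95% interval -0.55 to 0.13, q = 0.433). TGFß1 gave 0.17 (-0.18 to 0.51), IL-1β gave -0.08 (-0.42 to 0.26) and IL-6 gave -0.02 (-0.36 to 0.32). The second probe of *Ccnd2* gave values that differed from these by at most 0.06 with each cytokine.

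*Ccnd3* was lower with TGFß1 by less than the fold threshold. Its level was 4.88, 4.83 and 4.95 on control 1, 6 and 11 and 4.35, 4.64 and 4.45 on TGFß1 2, 7 and 12. All 3 TGFß1 arrays lay under the controls, with a log2 fold-change of -0.41 (95% interval -0.66 to -0.16, q = 0.0219), that is 1.33-fold. The second probe gave -0.27 with q = 0.136. TNFα gave 4.47, 4.72 and 4.64 on arrays 4, 9 and 14, also under the controls, with a log2 fold-change of -0.28 (-0.53 to -0.03, q = 0.141). The values with IL-1β and IL-6 were -0.17 (-0.42 to 0.08) and 0.14 (-0.11 to 0.39).

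*Myc* rose with TGFß1. Its level was 2.71 on TGFß1 2, 2.74 on TGFß1 7 and 2.56 on TGFß1 12, against 1.76 on control 1, 0.06 on control 6 and 1.67 on control 11. The TGFß1 arrays stood close together and above every control, while control 6 stood far under the other 2. The log2 fold-change was 1.51 (SE 0.41, q = 0.0188), a level 2.85-fold higher, and the second probe gave 1.65 (SE 0.39, q = 0.0094). The difference was 1.03 within slide 1, which holds control 1 and control 11, and 2.58 within slide 2, which holds control 6. Without control 6 it was 0.96 with q = 0.0541, and it was no longer called. The call was also lost without TGFß1 7 (1.48, q = 0.0514) and without TGFß1 2 (1.49, q = 0.0571). With the slide in the model it was 1.66 (SE 0.39, q = 0.00767), and with the slide in the model and without control 6 it was 1.05 with q = 0.0584.

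With TNFα the level of *Myc* was 2.55, 1.88 and 2.70 on arrays 4, 9 and 14, above every control. The log2 fold-change was 1.21 (95% interval 0.31 to 2.11) with q = 0.0769, which did not pass the test. With the slide in the model it was 1.36 (SE 0.39, q = 0.0317) and was called, and with the slide and the run it was 1.38 (SE 0.18, q = 0.000378). Without control 6 it was 0.66 (q = 0.201), or 0.75 (q = 0.202) with the slide in the model, and was not called. It was 0.99 within slide 1 and 2.15 within slide 2, where control 6 is the control. With IL-1β the arrays gave 2.14, 1.03 and 1.67 (arrays 5, 10 and 15), and with IL-6 they gave 1.97, 1.28 and 1.61 (arrays 3, 8 and 13). Both sets overlapped the controls, with log2 fold-changes of 0.45 (-0.45 to 1.35) and 0.45 (-0.44 to 1.35). Within slide 1 these were -0.13 and -0.09. Ordered by mean level, TGFß1 (2.67) was followed by TNFα (2.38), IL-6 (1.62), IL-1β (1.61) and control (1.16), and no neighbours in this order passed the test of their difference. With the slide and the run in the model, TNFα and IL-6 differed (0.93, q = 0.00376).

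**Figure D2:**
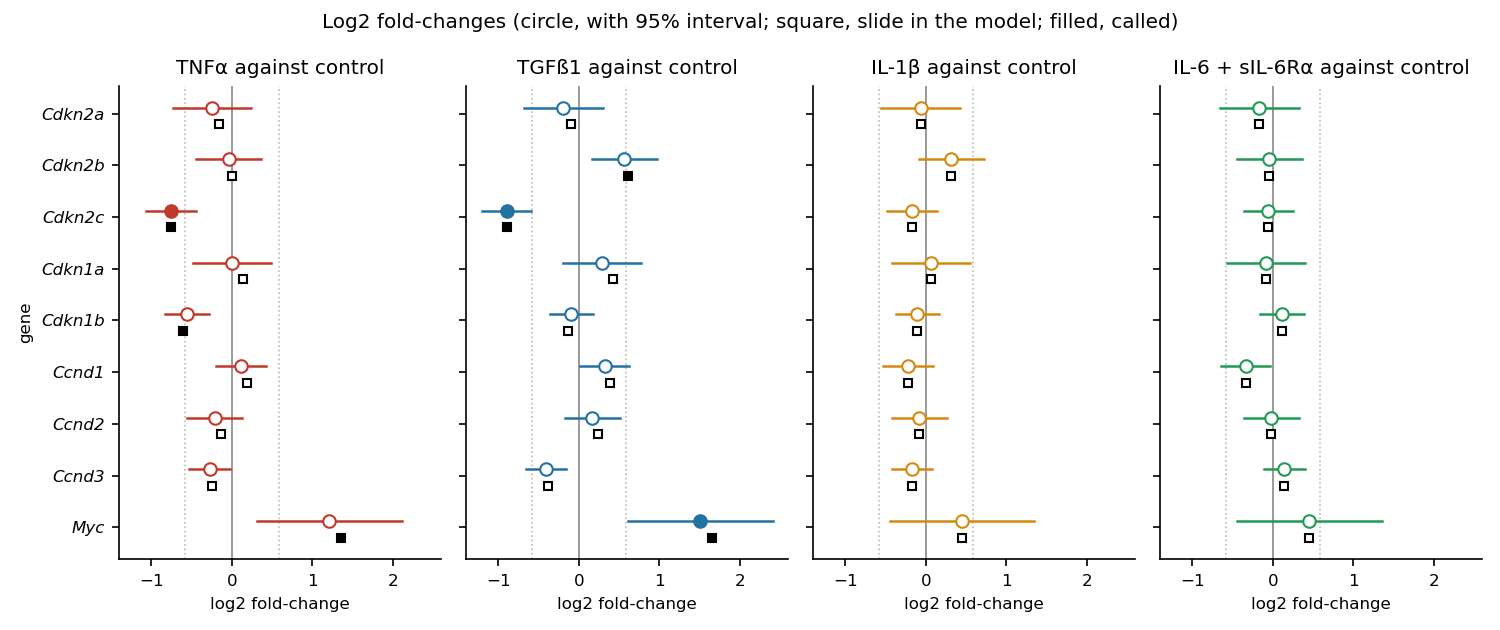
Log2 fold-change against control of the 9 genes for each cytokine. Circles with lines give the value and its 95% interval, squares the value with the slide in the model, filled symbols a call, and dotted lines the 1.5-fold threshold. *Cdkn2c* is filled with TNFα and TGFß1 in both fits, *Myc* with TGFß1, and *Cdkn1b* and *Myc* with TNFα and *Cdkn2b* with TGFß1 are filled with the slide in the model alone.

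The direct tests between the cytokines covered 6 pairs, and 8 of the 54 differences passed. Between TNFα and TGFß1, 1 of 9 genes differed (*Cdkn2b*, a call lost in the settings named above), with 11.8% of the probes called. TNFα differed from IL-1β in 1 gene (*Cdkn2c*, 4.83% of the probes) and from IL-6 in 2 (*Cdkn2c* and *Cdkn1b*, 8.68%). TGFß1 differed from IL-1β in 1 gene (*Cdkn2c*, 17.0%) and from IL-6 in 3 (*Cdkn2c*, *Cdkn2b* and *Ccnd1*, 16.4%). The differences from IL-6, apart from that of *Cdkn2c* with TGFß1, were each lost in settings named below. IL-1β and IL-6 differed in 0 genes, with 1 of 9 at an unadjusted p under 0.05 (*Ccnd3*, named after its value was seen) and 0.419% of the probes called. The same 8 differences and 3 more passed with the slide in the model. The added ones were *Myc* (1.21, q = 0.0333) and *Ccnd1* (0.61, q = 0.00155) between TGFß1 and IL-1β, where 19.6% of the probes were called, and *Myc* (q = 0.0356) between TGFß1 and IL-6, where 19.0% were called. With the slide and the run, *Myc* was also higher with TNFα than with IL-1β (0.93, q = 0.00484) and IL-6, which made 13 differences. In that fit 10.5% and 14.1% of the probes were called between TNFα and these, 22.1% and 21.4% between TGFß1 and these, and 16.1% between TNFα and TGFß1. With 9 genes, 1 call is 11.1% of the members, which is close to the share of all probes called between TNFα and TGFß1.

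For 5 of the 6 genes with 2 probes the log2 fold-changes against control of both probes differed by at most 0.19 with every cytokine. *Cdkn1a* was the exception, with gaps of 0.51 with TNFα and 1.03 with TGFß1. The 2 probes of *Myc* placed control 6 lowest among the 15 arrays alike, at 0.06 and -2.90.

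**Figure D3:**
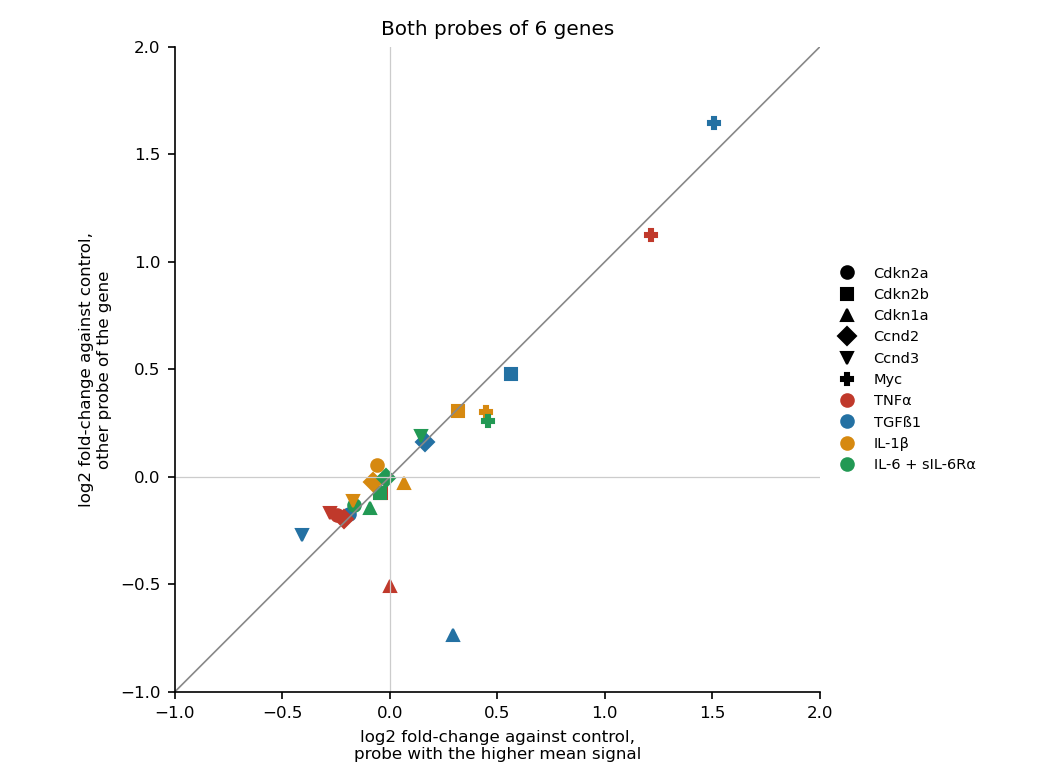
Log2 fold-change against control of the brighter probe (horizontal) and of the other probe (vertical) of the 6 genes with 2 probes, with a shape per gene and a colour per cytokine. Points on the diagonal have equal values; the *Cdkn1a* points of TNFα and TGFß1 lie under it, at -0.51 and -0.74 on the vertical axis.

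The genes around these 9 were described with lists of known members. Among the other CDK inhibitors, *Cdkn2d*, which encodes the INK4 protein p19, fell with TNFα (-0.75, SE 0.18, q = 0.0149) and TGFß1 (-1.06, SE 0.18, q = 0.0011). *Cdkn3*, a phosphatase that acts on CDKs, fell with TGFß1 (-0.72, SE 0.21, q = 0.0258). Thus 1 of the 3 tested genes of this list was called with TNFα and 2 with TGFß1, all lower. Of all 13523 tested genes, 12.7% and 21.2% were called. With TNFα 624 of these were higher and 1089 lower, and with TGFß1 1151 were higher and 1720 lower. In a list of 3 genes, 1 call is already 33.3%. Without control 6 the *Cdkn2d* call with TNFα and the *Cdkn3* call were lost, and *Cdkn2d* with TGFß1 remained. With IL-1β and IL-6, 0 of 3 were called by limma or had an unadjusted p under 0.05.

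Of the 19 CDK partners and retinoblastoma proteins, 2 were called with TNFα and 5 with TGFß1. These are 10.5% and 26.3% of the list, where 12.7% and 21.2% of all tested genes were called, so that the counts lie near those of all genes. *Cdk6*, a partner of the D cyclins, rose with both (0.91, SE 0.14, q = 0.000933 and 0.70, SE 0.14, q = 0.00296). *Fbxo4*, an F-box protein linked to the turnover of cyclin D1, fell with both (-0.61, q = 0.0383 and -0.76, q = 0.00801). With TGFß1, *Rbl2*, the retinoblastoma relative p130, fell (-0.91, SE 0.16, q = 0.00172), and *E2f3* and *E2f5* rose (0.88, q = 0.011 and 0.74, q = 0.00883). The *Fbxo4* call with TNFα was lost with the slide in the model and without control 6. The median of the list was -0.03 with TNFα and 0.06 with TGFß1. With IL-1β and IL-6, 0 of 19 were called by limma, and 2 and 0 had an unadjusted p under 0.05.

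In the MYC network, the called genes were of the MXD family, whose products pair with MAX and oppose MYC. *Mxd4* and *Mxd3* fell with TNFα (-1.69, SE 0.34, q = 0.00637 and -1.31, SE 0.22, q = 0.00231) and with TGFß1 (-1.16, SE 0.34, q = 0.0265 and -1.07, SE 0.22, q = 0.00458). *Mxd1* fell with TGFß1 (-1.25, SE 0.30, q = 0.0103). These are 2 and 3 of the 12 tested genes (16.7% and 25.0%, near the shares of all genes given above), and 0 were called higher with either, while the list's median was 0.08 and 0.22. Without control 6, *Mxd4* was no longer called with TGFß1. With IL-1β and IL-6, 0 of 12 were called, and 0 and 2 had an unadjusted p under 0.05.

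Of 20 tested nucleolar and biosynthetic genes known as MYC targets, 12 were called higher with TGFß1 and 3 with TNFα, against 21.2% and 12.7% of all genes called in either direction, and 0 were called lower. Without control 6 these counts were 5 and 1. In that fit, of 13537 tested genes, 863 were called higher and 1552 lower with TGFß1, and 522 higher and 929 lower with TNFα. The list's counts with the 2 cytokines were not tested against each other. *Ddx21*, an RNA helicase of ribosome synthesis, rose by 1.48 with TGFß1 (SE 0.24, q = 0.000972) and 1.14 with TNFα (SE 0.24, q = 0.00864). *Nop56*, a core protein of snoRNPs, rose by 1.04 (q = 0.00676) and 0.84 (q = 0.0326). With TGFß1, *Rrp9* rose by 1.09 (q = 0.0225) and *Polr1b*, a subunit of RNA polymerase I, by 1.08 (q = 0.0481). With TNFα, *Odc1*, the first enzyme of polyamine synthesis, rose by 0.73 (q = 0.0405). The median of the list was 0.77 with TGFß1 and 0.55 with TNFα, against 0.05 and 0.00 for all genes. With IL-1β and IL-6 it was 0.06 and 0.07, and 0 of 20 genes were called or had an unadjusted p under 0.05.

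Control 6 was the lowest array for these targets too. The median of the 20 genes, each centred on its mean over the 15 arrays, was -0.86 on control 6, 0.02 on control 1 and -0.07 on control 11, and 0.48, 0.49 and 0.55 on TGFß1 12, 2 and 7. On TNFα 4, 9 and 14 it was 0.27, 0.04 and 0.46. Without control 6 the median log2 fold-change of the list was 0.26 with TNFα and 0.50 with TGFß1. With the slide in the model, 16 were called with TGFß1 and 9 with TNFα, and these included all 12 and all 3 of the genes called without it. Of 13523 tested genes, that fit called 1413 higher and 1691 lower with TGFß1, and 844 higher and 1108 lower with TNFα. IL-1β 10, IL-6 8 and TNFα 9, of the same run of label numbers as control 6, were also the lowest of their groups for these targets (-0.53, -0.45 and 0.04) and for *Myc*. TGFß1 7, the fifth array of that run, was the highest of its group for these targets. What sets control 6 or this run apart was not tested.

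The 14 proliferation markers, genes of DNA replication and mitosis such as *Mki67*, *Pcna* and *Ccnb1*, gave 0 calls by limma with each of the 4 cytokines. With TGFß1, 3 had an unadjusted p under 0.05 and with the others 0. Their median was 0.00 with TNFα, -0.04 with TGFß1, -0.07 with IL-1β and -0.01 with IL-6, and the 14 values with TGFß1 lay between -0.38 and 0.22. With the slide in the model and without control 6, 0 of 14 were called as well.

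**Figure D4:**
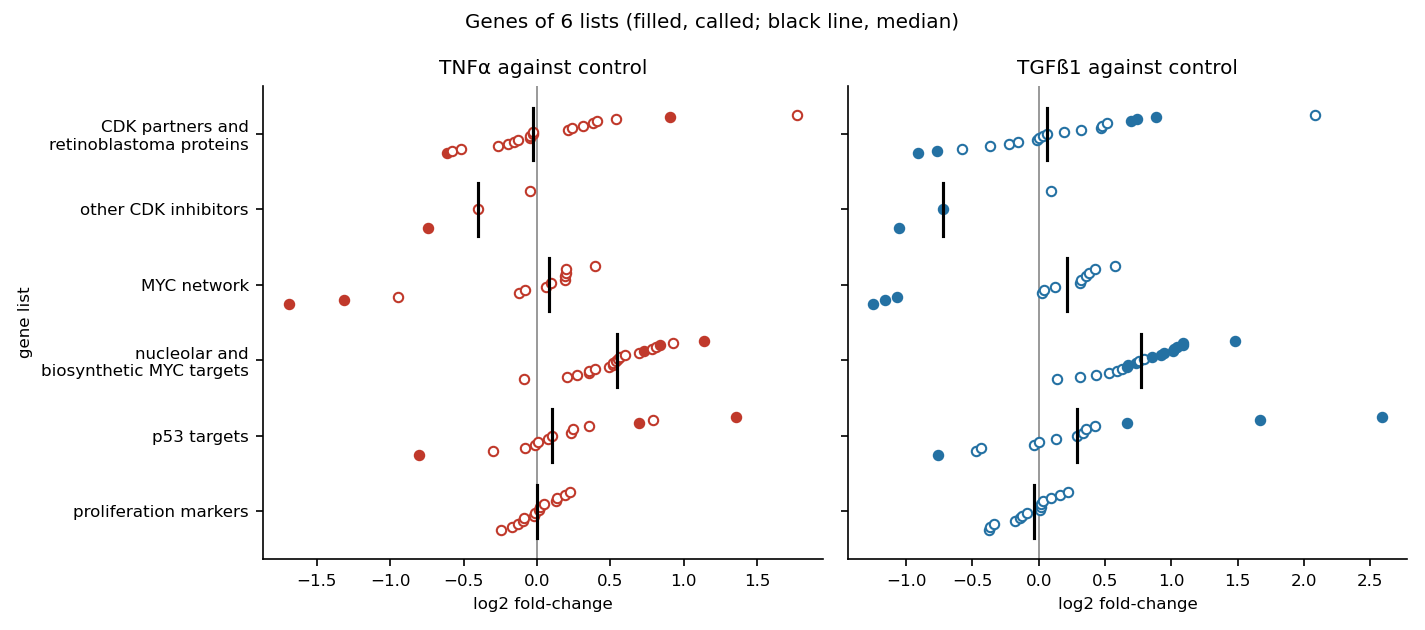
Log2 fold-change against control, with TNFα (left) and TGFß1 (right), of each tested gene in 6 lists. Filled points were called and the black line is the median of the list. The MYC targets have medians of 0.55 and 0.77, and the proliferation markers stay between -0.38 and 0.23.

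The genes whose levels followed those of *Cdkn2c* most closely over the 15 arrays, among 13486 candidates, were *S100a1* (Pearson r = 0.99), *Hcfc1r1* (r = 0.99) and *Cebpa* (r = 0.99). For *Myc* they were *Ube2cbp* (r = 0.99), *Gemin5* (r = 0.98) and *Snhg5* (r = 0.98). The 15 points share 2 slides and 5 groups, so these values describe the arrays, and control 6 is 1 of the points for *Myc*.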

How the data were processed

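The authors hybridized Cyanine 3-labelled RNA of MEFs on 15 arrays and extracted the spots with Agilent Feature Extraction 10.7.3.1 (per the labels). The deposited intensity is the processed signal of each spot, after background subtraction by that software and with no normalization between arrays. The table of the whole series held the same values. Here, outlier spots were left out, log2 intensities of a probe's spots were averaged and scaled to the array's 75th percentile. Probes were named through RefSeq identifiers with a table of GRCm38.p6, which named 33767 of 56605 probes. Probes well above background (on at least 0.5 of their spots) on every array of at least 1 group were tested with limma 3.58.1 in R 4.3.3, in 1 model of all 15 arrays. The analysis was tested on simulated data.

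All 9 members are named, as are up to 4 called genes per list and comparison with the largest change. The members and lists were chosen with earlier results of these data known. The study's q threshold (0.05) and fold threshold (1.5) were kept. The slide comes from the file headers, and the run of label numbers (1 to 5, 6 to 10, 11 to 15) from the labels. Over the tested probes, the deviations of arrays of the same run correlated above 0.1 in all 30 pairs once group and slide were removed (r = 0.114 to 0.671). Pairs of different runs and groups did so in 2 of 60. With the group alone removed, 12 of 30 pairs of the same run and 28 of 60 pairs of different runs did. Alternatives were the slide and the run in the model, normexp background correction (offset 50), quantile or median scaling, no filter on dim probes, the mean of a gene's probes, 9 arrays, and leaving out each array. The number of arrays limits the precision. Samples were grouped by their labels, and no sample was left out.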

Additional observations from a re-analysis of the deposited data

Results flagged for a closer look

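The direct tests between cytokines found 8 differences among the 9 genes (limma, q under 0.05 with at least 1.5-fold), and each is given as the first cytokine minus the second. *Cdkn2c* was lower with TNFα than with IL-1β by a log2 fold-change of -0.59 (q = 0.0299) and than with IL-6 by -0.70 (q = 0.00662). It was lower with TGFß1 than with IL-1β by -0.73 (q = 0.00314) and than with IL-6 by -0.84 (q = 0.0012). The *Cdkn2c* call between TNFα and IL-1β was lost in the settings given above. The one between TNFα and IL-6 was lost without IL-6 8. In all 8 differences, those below included, the arrays of the 2 groups did not overlap. The 8 were picked by a test on these arrays, so this adds no support. How often it holds over all probes was not counted. *Cdkn2b* was lower with TNFα than with TGFß1 (-0.61, q = 0.0446) and higher with TGFß1 than with IL-6 (0.61, q = 0.0339). Both *Cdkn2b* calls were lost with quantile normalization, median scaling, no filter on dim probes, the mean of a gene's probes, or without TGFß1 7. They were also lost when any single IL-6 array was left out. *Cdkn1b* was lower with TNFα than with IL-6 (-0.67, q = 0.0041), and *Ccnd1* was higher with TGFß1 than with IL-6 (0.66, q = 0.00586). The *Cdkn1b* call was lost without IL-6 13. The *Ccnd1* call was lost without that array as well, and with normexp background correction, quantile normalization or median scaling. The exposure time of the IL-1β and IL-6 arrays is not given per group, so time and cytokine cannot be told apart in 7 of these 8 differences. Groups of 3 arrays were not searched for single arrays that stand apart.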

How the results depend on the processing

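*Cdkn2c* was called lower with TNFα and with TGFß1 under all 24 alternatives, with log2 fold-changes no closer to 0 than -0.61 and -0.75. The count of members called with TNFα, 1 as reported, was 3 with the slide in the model, 3 with the slide and the run, 2 with median scaling, 2 with control 6 left out and the slide in the model (added after seeing the data), and 1 to 2 when single arrays were left out (2 without TNFα 14). With TGFß1 the count, 2 as reported, was 3 with the slide in the model and 3 with the slide and the run. It was also 3 with normexp background correction, and 1 with control 6 left out and the slide in the model. When single arrays were left out it was 1 to 3 (1 without control 6 or TGFß1 7, 3 without TGFß1 12). The 8 direct differences became 13 with the slide and the run, 4 with median scaling, 5 with no filter and 4 to 9 when single arrays were left out (4 without IL-6 13, 5 without IL-6 8). No call changed direction, and the counts with IL-1β and IL-6 were 0 under all 23 alternatives. With median scaling the share of higher calls among all probes called with TNFα was 29.8% in place of 40.5%. The causes were not tested, beyond fewer arrays where arrays were left out. The labels do not say that a run of numbers shares an experiment. With the slide and the run in the model, the SE of *Myc* with TNFα was 0.18 in place of 0.41, and its log2 fold-change was 1.38 (q = 0.000378). Changes well under 1.5-fold could not be called, and the intervals of *Myc* and of the dimmer *Cdkn1a* probe were the widest.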

Other observations

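Of 13 tested genes known as p53 targets, 3 were called with TNFα and 4 with TGFß1, which are 23.1% and 30.8% of the list where 12.7% and 21.2% of all tested genes were called. *Gadd45a*, a stress-induced growth arrest gene, rose by 1.36 with TNFα (SE 0.24, q = 0.00299) and 1.67 with TGFß1 (SE 0.24, q = 0.000442). *Mdm2*, the ubiquitin ligase of p53, rose by 0.70 (q = 0.036) and 0.66 (q = 0.0283). *Pmaip1*, a pro-apoptotic BH3 protein, rose with TGFß1 by 2.58 (SE 0.46, q = 0.00176). *Trp53inp1* fell with both (-0.80, q = 0.0336 and -0.76, q = 0.0261). The list's median was 0.10 and 0.29. Without control 6, *Gadd45a* was called with TNFα and *Gadd45a* and *Pmaip1* with TGFß1. With IL-1β and IL-6, 0 of 13 were called by limma, and 2 and 0 had an unadjusted p under 0.05. *Cdkn1a*, another p53 target, was not called.

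The lists of cytokine responses were chosen with earlier results of these data known, so their counts describe the stimulation and do not test it. Of all tested genes, 12.7% were called with TNFα, 21.2% with TGFß1, 0.355% with IL-1β and 0.0961% with IL-6. All 10 genes of the TNFα and IL-1β response were called higher with TNFα, led by *Ccl5* (8.36), *Icam1* (5.92), *Tnfaip3* (3.84) and *Cxcl1* (3.64), and 7 with IL-1β. With TGFß1, 9 of these were called lower and 0 higher. Of 10 genes of the TGFß1 response, 6 were called higher with TGFß1, led by *Jag1* (5.84) and *Ccn2* (3.06), and 3 were called lower. Of 8 genes of the IL-6 response, *Socs3* (2.39), *Cebpd* (1.71) and *Bcl3* (1.65) were called higher with IL-6, and without control 6 *Socs3* alone was. Without control 6, 6 genes of the first list were called with IL-1β, and with TGFß1 6 of the TGFß1 response were called higher and 2 lower.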
